A study of Homo sapiens with 32 samples.

Results

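RNA held by the cap-binding part of eIF3d was set against input RNA in unstressed human HEK293T cells, an established embryonic kidney line. The genes described are those with a mean of at least 1 RPKM (reads per kilobase of gene length and per library size) over the 4 Subunit-Seq inputs: 9813 of the 58721 genes listed (16.7%). The rule used input levels only, not the difference between immunoprecipitate (IP) and input. Input DMSO levels also enter that difference, and genes high in IP but low in the inputs fell outside the rule. HIPK3 (1.00056) lay just inside it, and LAMA4 (0.999994) and CCDC24 (0.99954) just outside. Input DMSO and IP DMSO were from cells labelled HA-eIF3d-TEV and given the solvent DMSO for 16 h, with 2 libraries each. Input Tg and IP Tg, also 2 libraries each, came from the same tagged cells given 600 nM thapsigargin (Tg) for 16 h; this inhibitor of the calcium pump SERCA empties the endoplasmic reticulum (ER) of calcium and causes ER stress. All 4 groups thus carry the HA tag and the TEV protease site in eIF3d, and whether native eIF3d remains in these cells is not given in the sources used here. No IP from untagged cells was analysed here, so background binding to the beads was not measured. The labels do not tell whether the 2 replicates were grown as separate cultures, and p-values then measure only the spread between these libraries, which may be technical. In bulk RNA, fewer cells that contain an RNA and less of it per cell cannot be told apart, and RPKM give shares of a library rather than amounts.

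Most mRNAs begin translation when eIF4E, within the eIF4F complex, binds the cap at their start. eIF3 is the large initiation factor that joins the small ribosomal subunit to the mRNA, and its subunit eIF3d can itself bind the cap of some mRNAs, of which JUN is the best known. Subunit-Seq isolates eIF3d with anti-HA beads, frees its cap-binding domain with TEV protease and sequences the RNA that stays with it, so each gene's IP level is read against its level in the input.

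The libraries differed in how many genes they detected. Replicates 1 and 2 held 8130736 and 14606555 reads for input DMSO, against 10808590 and 14828186 for IP DMSO. Of the 9813 genes, 9637 and 6146 were at 1 RPKM or more in input DMSO 1 and 2, against 9613 and 9257 in IP DMSO 1 and 2. Input DMSO 2 therefore stood apart, and both replicates are given side by side below. Mitochondrial rRNA took 4.64% and 20.4% of reads in the inputs and 0.398% and 0.705% in the IPs. All 6 HEK293T marker genes chosen (PAX2, LIN28B, VIM, NEFL, NEFM and INA) were at 1 RPKM or more in both IPs, against 5 in input DMSO 1 and 2 in input DMSO 2. The summed level of 10 markers of blood, liver, fibroblast, endothelial, pancreatic and astrocyte cells was 1.43 and 0.673 RPKM in the inputs, 22.4 in IP DMSO 1 and 2.54 in IP DMSO 2. PTPRC, CD3E and INS were at 0 in all 4 libraries. Nearly all of the sum in IP DMSO 1 was COL1A2, at 20.7 RPKM there and 0 in IP DMSO 2; its part in the results was not tested.

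The IP held more of the long cytoskeletal mRNAs and of ER chaperone mRNAs, and less ribosomal protein mRNA, histone mRNA and mitochondrial rRNA, than the input. With limma on log2(RPKM + 1), 2100 of 9813 genes passed an adjusted p of 0.05 as higher in IP DMSO (21.4%) and 172 as lower (1.75%), 23.2% in all. The median gene was higher by 0.96 on the log2 scale, by 0.38 within replicate 1 and by 1.57 within replicate 2. Where each library was centred on its own median, 86 genes were called higher (0.876%) and 406 lower (4.14%), so the balance of calls depends on the scaling. For that reason gene groups are described relative to the all-gene median. Of the 2100 genes called higher, 1942 lay above the all-gene median in both replicates, as did 32.7% of all genes. Of the 172 called lower, 171 lay below it in both, as did 32.7% of all genes. The calls were made from these same replicate differences, so these counts largely follow from the selection and are no independent evidence. Across the 9813 genes the differences of replicates 1 and 2, which share no library, correlated with r = 0.484; genes are not independent replicates. When input DMSO replicate 2 was left out, limma made 0 calls (1300 genes had an unadjusted p below 0.05), and without the replicate number as a block it called 21 higher and 3 lower. Without that library, medians relative to all genes were −3.25 for histone genes, −1.29 and −1.27 for small-subunit and large-subunit ribosomal proteins, 1.08 for long cytoskeletal mRNAs and 0.88 for ER chaperones.

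**Figure D1:**
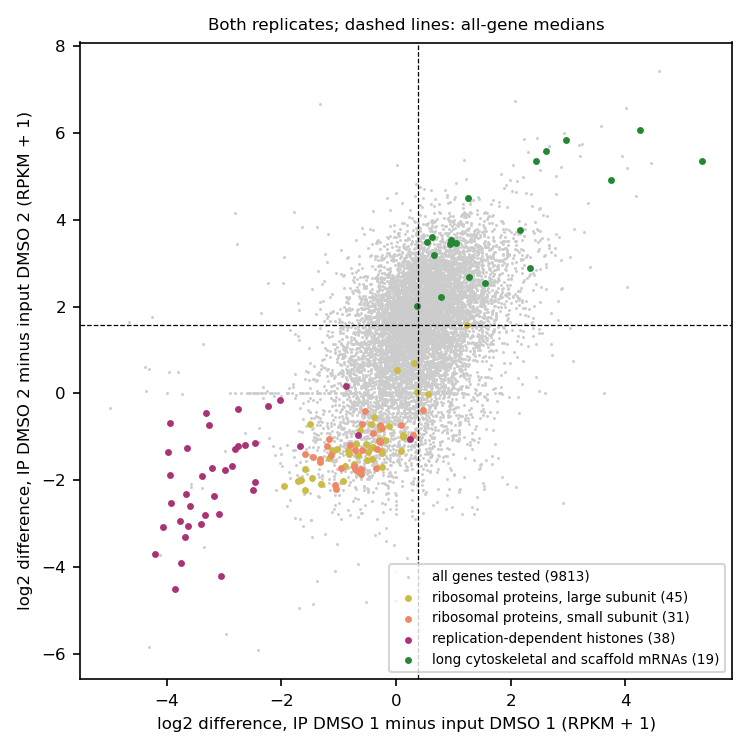
Log2 difference of RPKM + 1, IP minus input, in DMSO replicate 1 (horizontal) against replicate 2 (vertical) for 9813 genes (grey), with 4 gene lists in colour and all-gene medians (0.38 and 1.57) as dashed lines. All 38 histone genes lie below both medians, ribosomal protein genes lie mostly below both, and 18 of 19 long cytoskeletal genes lie above both.

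The largest differences were those of mRNAs of the actin and spectrin cytoskeleton. DBN1 (ENSG00000113758.13), which encodes the actin-binding protein drebrin, was at 14.2 and 3.05 RPKM in input DMSO 1 and 2 and at 366 and 688 RPKM in IP DMSO 1 and 2. Both IP values were far above both inputs, and the log2 difference was 6.002 ± 0.638 (SE, 2 libraries a group; adjusted p = 1.79e-17). SPTAN1 (ENSG00000197694.15), the alpha chain of non-erythroid spectrin, went from 2.18 and 0.329 RPKM in the inputs to 128 and 53.4 in the IPs, with almost the same log2 difference in replicates 1 and 2 (5.34 and 5.36). DIAPH1, a formin that nucleates actin filaments, went from 3.70 and 0.529 RPKM to 74.5 and 145. In each of these the IP libraries lay above the inputs with no overlap, as they did for 5492 of all genes (56%). The lack of overlap was a condition of the rule that picked these genes. The log2 differences of SPTAN1 and DIAPH1 were 5.35 and 5.29.

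Other genes of the same kind followed. MYH10, a non-muscle myosin heavy chain, had a log2 difference of 4.39 ± 0.67, and IQGAP1, a scaffold that links actin to small GTPases, of 4.32 ± 0.65. Of the 19 long cytoskeletal and scaffold mRNAs tested, 17 were called higher, against 21.4% of all genes, and none was called lower. Their median length was 11535 bases, and 34.4% of tested genes of 6780 to 29523 bases were called higher. The part of length in this count was not tested. The list's median lay 1.29 above the all-gene median, 0.90 in replicate 1 and 1.96 in replicate 2, and 18 of its members were above the all-gene median in both. With centred libraries 7 of the 19 were called higher. The 2 not called were KIF1B, a kinesin, and GOLGB1, a Golgi scaffold, at 1.19 and 1.50. This list was drawn up with earlier results of these data known, so its direction is no independent evidence. The abundant short mRNAs of the same cytoskeleton did not share this: of 24 short cytoskeletal mRNAs, 2 were called higher, ACTB (beta-actin, 1.77 ± 0.57) and ARPC4 (a subunit of the ARP2/3 complex, 2.07 ± 0.66), and the median lay 0.56 below the all-gene median. ACTB was at 260 and 45.7 RPKM in the inputs and at 320 and 441 in the IPs, so the IP values exceeded input DMSO 1 by little.

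**Figure D2:**
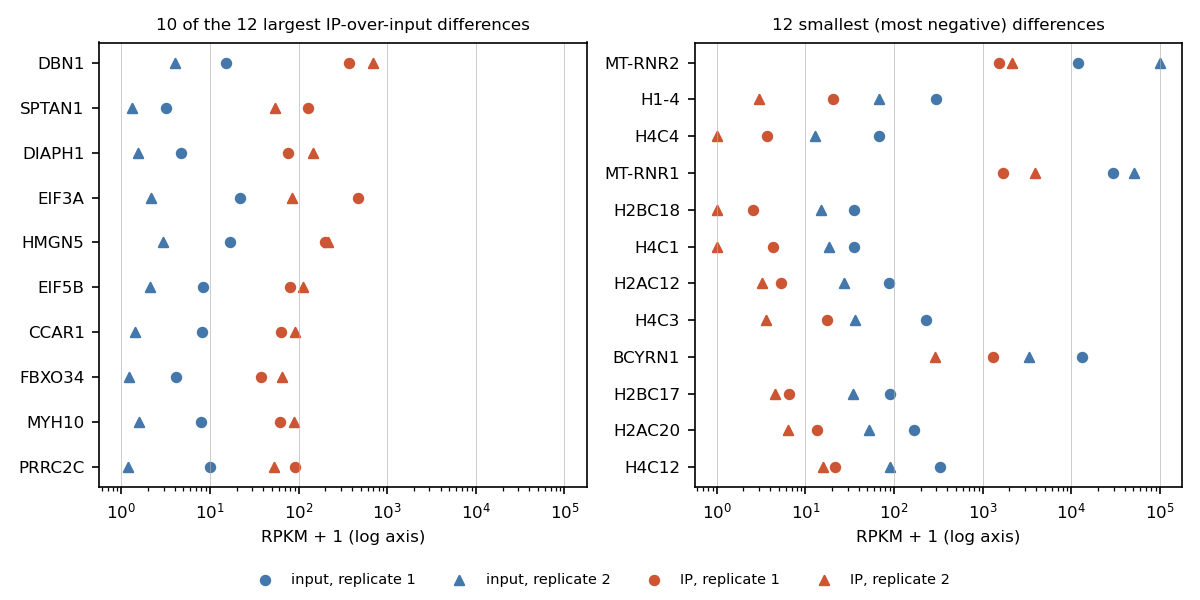
RPKM + 1 on a log axis in the 4 DMSO libraries for 10 of the 12 called genes with the largest (left) and the 12 with the smallest (right) log2 difference; blue is input, orange is IP, circles replicate 1 and triangles replicate 2. The genes were chosen so that the IP pair and the input pair do not overlap; input DMSO 2 is the lowest of the 4 libraries for all 10 genes on the left.

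Other genes at the top of the order include translation factors. EIF3A (ENSG00000107581.12), the largest eIF3 subunit, was at 20.6 and 1.14 RPKM in the inputs and at 473 and 83.4 in the IPs. Its log2 difference was 4.88 ± 0.66 (adjusted p = 1.47e-10), and 4.45 and 5.30 within replicates 1 and 2. EIF5B, the GTPase that joins the ribosomal subunits, went from 7.36 and 1.09 RPKM to 78.2 and 112, and PRRC2C, an RNA-binding protein, from 8.96 and 0.184 to 90.8 and 51.3. HMGN5, a nucleosome-binding protein, CCAR1, a coactivator of transcription, and FBXO34, an F-box protein, had log2 differences of 4.87, 4.47 and 4.46. All 12 of these largest differences were also called with centred libraries, with adjusted p from 0.00599 (DBN1) to 0.0389 (HMGN5). Centring moves the difference of every gene by the same amount. These 12 were picked as the largest called differences, so this is no independent evidence. Without input DMSO replicate 2 none was called; DBN1 then had a log2 difference of 4.80 (adjusted p = 0.0737) and EIF3A of 4.06 (adjusted p = 0.107).

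EIF3D itself, the bait, was not called. It was at 104 and 37.6 RPKM in the inputs and at 158 and 153 in the IPs, a log2 difference of 1.30 ± 0.59 (adjusted p = 0.0848). Reads of a tagged copy and of the native gene cannot be told apart in these tables. Of the 13 eIF3 subunits, 2 were called higher, EIF3A and EIF3B (1.68 ± 0.66, adjusted p = 0.049), a smaller share than the 21.4% of all genes, and the median lay 0.91 below the all-gene median (0.57 below without input DMSO 2). EIF3G, EIF3I, EIF3L, EIF3K, EIF3H, EIF3F and EIF3M lay below the all-gene median in both replicates, with log2 differences from −0.78 (EIF3G) to 0.05 (EIF3M). The eIF3 mRNAs thus did not move together.

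Among cap-binding, eIF4G and eIF4A factors, 6 of 14 were called higher, against 21.4% of all genes, and none lower; with centred libraries EIF4G1 was called higher and EIF4E2 and EIF4EBP1 lower. The median lay 0.63 above the all-gene median, but only 0.05 above it in replicate 1 and 0.21 without input DMSO 2. EIF4G1, the scaffold of eIF4F, was at 25.1 and 1.71 RPKM in the inputs and 111 and 79.1 in the IPs (log2 difference 3.49 ± 0.66). LARP1, which binds the cap of mRNAs that begin with a pyrimidine tract, went from 20.7 and 0.290 RPKM to 58.3 and 27.6. EIF4G2, the eIF4G relative DAP5, went from 67.1 and 7.71 RPKM to 81.7 and 96.0, a log2 difference of 0.28 in replicate 1 and 3.48 in replicate 2. EIF4E, the canonical cap-binding protein, was not called, at 2.91 and 0.676 RPKM in the inputs and 3.30 and 3.69 in the IPs. EIF4E lay 0.15 below the all-gene median. The spread of this list between replicates was wider than its distance from the all-gene median.

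The eIF2 pathway lay close to the average gene: 5 of 16 genes were called higher, against 21.4% of all genes, and none with centred libraries. The median lay 0.07 above the all-gene median, and 0.0046 below it without input DMSO 2. It lay 0.15 below in replicate 1 and 0.49 above in replicate 2. EIF2AK4, the eIF2 kinase GCN2, was at 3.62 and 0.195 RPKM in the inputs and 7.60 and 6.26 in the IPs (log2 difference 1.75 ± 0.61). PPP1R15A and PPP1R15B, which direct phosphatase to eIF2, had log2 differences of 2.31 ± 0.67 and 2.09 ± 0.64. In replicates 1 and 2 these were 1.52 and 3.10 for PPP1R15A, and 0.62 and 3.57 for PPP1R15B. PPP1R15B had 8 reads in input DMSO 2.

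Ribosomal protein mRNAs were low in the IP in both replicates. They took 32.5% and 41.5% of reads in the inputs and 19.7% and 17.4% in the IPs. Of 31 small-subunit genes 16 were called lower and none higher, against 1.75% of all genes called lower, and the list's median lay 2.00 below the all-gene median. Of 45 large-subunit genes 16 were called lower and none higher, with the median 1.93 below. In replicate 1 the medians lay 1.00 and 0.90 below the all-gene median and in replicate 2 they lay 2.88 and 2.89 below it; with centred libraries 11 and 14 of these genes were called lower. RPL29 was at 2902 and 5472 RPKM in the inputs and 883 and 1345 in the IPs, a log2 difference of −1.87 ± 0.37 (adjusted p = 6.72e-05). RPS21 went from 2196 and 4403 RPKM to 1052 and 1026, and RPL39 from 2819 and 4482 to 937 and 957. In these the 2 IP values lay below both inputs. RPL22 was the large-subunit gene farthest the other way, at a log2 difference of 1.40, not called, and is named here after its values were seen. Many ribosomal protein genes have near-identical pseudogene copies, and how the authors' counting split such reads is not given in the sources used here.

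Ribosomal protein mRNAs are the classic TOP mRNAs, which begin with a cytosine and a run of pyrimidines that LARP1 and mTORC1 signalling act on. Start windows were taken from RefSeq (GRCh38.p14) to show this for genes on both sides of the comparison, from 10 bases before the annotated start to base 20 after it on the strand of the gene, with bases 1 to 5 in capitals.
RPL29 (chr3:51995876-51995905, minus strand): cagcccctttCTCTTccggttctaggcgct
RPL39 (chrX:119791611-119791640, minus strand): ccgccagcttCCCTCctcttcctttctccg
RPS21 (chr20:62387093-62387122, plus strand): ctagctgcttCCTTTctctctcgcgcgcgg
EEF1A1 (chr6:73521013-73521042, minus strand): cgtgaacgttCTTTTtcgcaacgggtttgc
EIF4B (chr12:53006446-53006475, plus strand): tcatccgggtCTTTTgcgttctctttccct
NAP1L1 (chr12:76084666-76084695, minus strand): gctcttgggtCTTTTttagcgccatctgct
DBN1 (chr5:177473615-177473644, minus strand): cgctcggctcGCGACgctgcagaggctccg

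The first 6 genes share a C at base 1 followed by 4 bases that are each C or T, and DBN1 does not. This tract, read on the gene's own strand and at the annotated start only, stood in 24 of the 36 large-subunit genes with a window, in 7 of 12 windows of the list of elongation factors and other TOP mRNAs, and in 4.04% of the 27305 windows of RefSeq genes. It stood in none of the 34 histone and 17 long cytoskeletal windows. Too few small-subunit genes (77.4%) and genes tested (71.5%) had a window, so no share is read for those. RPL29, RPL39 and RPS21 were called lower at −1.87, −1.91 and −1.58, also with centred libraries. EEF1A1, translation elongation factor 1 alpha, lay at 0.73 and was not called. EIF4B and NAP1L1 were called higher at 2.10 ± 0.66 and 1.76 ± 0.67. EIF4B was at 73.6 and 5.29 RPKM in the inputs and at 112 and 75.4 in the IPs. It lay 0.22 and 2.03 above the all-gene median in replicates 1 and 2, and NAP1L1 1.36 and 0.21 above. Of the 15 elongation factors and other TOP mRNAs, 4 were called higher (PABPC1, EIF4B, HNRNPA1 and NAP1L1), close to the share of all genes (21.4%), and none lower. With centred libraries none of the 15 was called. PABPC1, the cytoplasmic poly(A)-binding protein, went from 166 and 22.2 RPKM in the inputs to 358 and 208 in the IPs. That list's median lay 0.18 below the all-gene median.

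Nuclear genes for mitochondrial proteins lay on the same side as the ribosomal proteins. Of 72 nuclear-encoded respiratory chain subunits, 4 were called lower (NDUFB11, NDUFA4, NDUFA3 and COX5B) and 3 higher (SDHA and NDUFS1 among them), against 1.75% and 21.4% of all genes. The median lay 1.52 below the all-gene median (0.98 below without input DMSO 2), with 59 genes below it in both replicates. NDUFB11, a small complex I subunit, went from 450 and 769 RPKM to 153 and 211. SDHA, the large flavoprotein subunit of complex II, went from 12.9 and 3.02 RPKM to 23.1 and 26.0. Of 73 mitochondrial ribosomal proteins, MRPL41 alone was called lower (−1.55 ± 0.55) and none higher, and the median lay 1.13 below. With centred libraries 17 respiratory chain genes and 16 mitochondrial ribosomal protein genes were called lower, against 4.14% of all genes, and none higher.

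**Figure D3:**
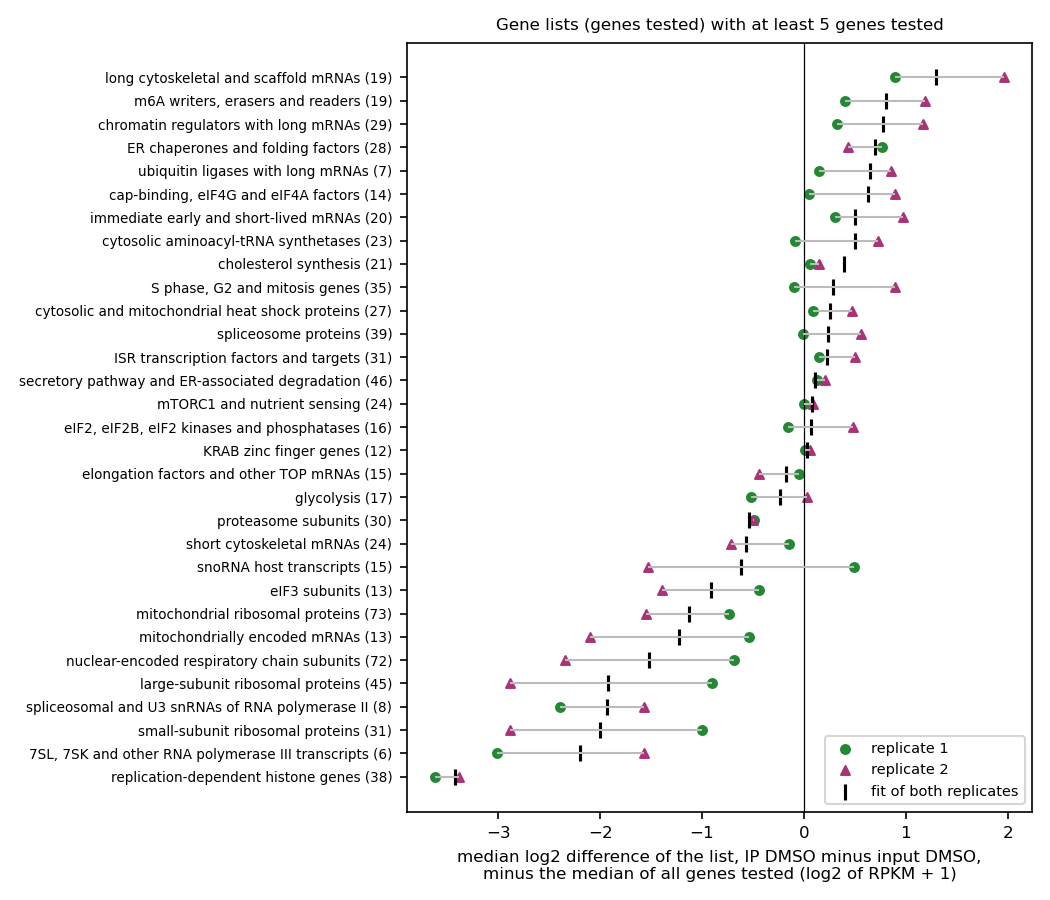
Median log2 difference (IP DMSO minus input DMSO) of each of the 31 lists with at least 5 genes tested, less the all-gene median, for replicate 1 (circle), replicate 2 (triangle) and the fit of both (bar). In 2 lists of small RNAs the replicate 2 point is set by genes at 0 in both of its libraries; in 23 of the 29 other lists both replicates lie on the same side of 0. Long cytoskeletal mRNAs are at the top and histone genes at the bottom, near −3.42 in the fit.

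Replication-dependent histone mRNAs, which end in a stem-loop in place of a poly(A) tail, were the lowest of the lists with at least 5 genes tested. Of 38 genes tested 32 were called lower, against 1.75% of all genes, and none higher, the median lay 3.42 below the all-gene median (3.62 in replicate 1 and 3.39 in replicate 2), and all 38 lay below it in both replicates. With centred libraries 30 were called lower, against 4.14% of all genes. H1-4, a linker histone, was at 297 and 66.5 RPKM in the inputs and 19.6 and 1.97 in the IPs, a log2 difference of −4.18 ± 0.66 (adjusted p = 8.15e-08). H2AC20, an H2A gene, went from 165 and 51.3 RPKM to 12.3 and 5.36, and H4C3, an H4 gene, from 226 and 35.1 to 16.6 and 2.64. H4C4, another H4 gene, was at 66.6 and 11.8 RPKM in the inputs, 2.67 in IP DMSO 1 and 0 in IP DMSO 2, where 3 reads would be 0.648 RPKM. The 2 IP libraries lay below both inputs in 36 of the 38 genes, against 6.76% of all genes. These genes are near-identical copies, so the split of reads between single members is uncertain.

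Mitochondrial rRNA and BC200 RNA, which have no mRNA cap, were also low. MT-RNR1, the small mitochondrial rRNA, went from 29129 and 51336 RPKM in the inputs to 1673 and 3886 in the IPs (log2 difference −3.92 ± 0.25), and MT-RNR2, the large one, from 11964 and 99659 to 1528 and 2143 (−4.25 ± 0.26). BCYRN1, the BC200 RNA made by RNA polymerase III, went from 13251 and 3327 RPKM to 1294 and 287 (−3.44 ± 0.37). In each case both IP values lay below both inputs, as they did for 6.76% of all genes. This was a condition of the rule that picked these RNAs. Mitochondrially encoded mRNAs, which have no cap either, were mixed: 3 of 13 were called lower (MT-CO3, MT-ND3 and MT-CO2) and 2 higher (MT-ND5 and MT-ATP8), against 1.75% and 21.4% of all genes, and none with centred libraries. Their median lay 1.22 below the all-gene median, 0.54 and 2.10 below in replicates 1 and 2, and 0.13 below without input DMSO 2. MT-ATP8 overlaps MT-ATP6, had a log2 difference of −0.11 in replicate 1 and 4.22 in replicate 2, and is uncertain. The 7SL genes went opposite ways: RN7SL2, an RNA of the signal recognition particle, was at 12054 RPKM in input and 475 in IP in replicate 1, and at 204 and 640 in replicate 2, and RN7SL3 showed the same pattern. Both were called lower in the fit, and both directions rest on replicate 1. Of 8 spliceosomal and U3 RNAs none was called. The median lay 2.39 below the all-gene median in replicate 1, and 6 of the 8 were at 0 in both libraries of replicate 2, so that replicate says nothing of them.

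ER chaperone and folding mRNAs were above the average gene in both replicates. Of 28 tested 17 were called higher, against 21.4% of all genes, and none lower, and the median lay 0.70 above the all-gene median, 0.77 in replicate 1 and 0.43 in replicate 2; with centred libraries HSP90B1 alone of these was called higher. HSPA5, the ER chaperone BiP, was at 9.06 and 13.8 RPKM in the inputs and 62.7 and 158 in the IPs (log2 difference 3.04 ± 0.63, adjusted p = 0.000177). HSP90B1, the ER member of the HSP90 family, went from 9.90 and 9.59 RPKM to 105 and 138 (3.50 ± 0.64), and PDIA3, a disulfide isomerase, from 5.22 and 7.07 to 49.8 and 70.4. Unlike most of the long genes above, these 3 had input DMSO 2 close to or above input DMSO 1, and their differences in replicates 1 and 2 were alike (2.66 and 3.42, 3.29 and 3.71, 3.03 and 3.15). Without input DMSO replicate 2 their log2 differences were 2.74, 3.12 and 2.82, none of them called. PDIA4, another called gene of this list, also had like inputs (8.82 and 8.67 RPKM), but its differences in replicates 1 and 2 were 2.04 and 3.57. Of 46 genes of the secretory pathway and of ER-associated degradation, 13 were called higher and SSR4, a small translocon subunit, lower, close to the shares of all genes (21.4% and 1.75%), and the median lay 0.11 above the all-gene median. SEC62 and SEC61A1, parts of the translocation channel, had log2 differences of 2.71 and 2.61.

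Stress and growth-control mRNAs were mixed. Of 31 transcription factors and targets of the integrated stress response, 10 were called higher, against 21.4% of all genes, and none lower, none with centred libraries, and the median lay 0.23 above the all-gene median. ATF4, the transcription factor of that response, was at 430 and 133 RPKM in the inputs and 1220 and 591 in the IPs (log2 difference 1.82 ± 0.46). Both its IP values lay above both inputs. DDIT3, which encodes CHOP, was not called at 5.08 and 7.96 RPKM in the inputs and 13.1 and 16.8 in the IPs. CEBPB, a transcription factor, and SLC7A5, an amino acid transporter, had log2 differences of 2.70 ± 0.67 and 2.84 ± 0.66. Of 20 immediate early and short-lived mRNAs, 9 were called higher, against the same 21.4%, and none lower, with the median 0.50 above. JUN (ENSG00000177606.6) was at 49.5 and 3.87 RPKM in the inputs and 174 and 102 in the IPs, a log2 difference of 3.10 ± 0.64 (adjusted p = 0.00016; 0.076 with centred libraries). JUN was higher in both replicates, by 1.79 and 4.41. SOX4, a developmental transcription factor, had a log2 difference of 3.93 ± 0.67, and was the 1 gene of that list also called with centred libraries.

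Of 19 m6A writers, erasers and readers, 11 were called higher, against 21.4% of all genes, and none lower. The median lay 0.81 above the all-gene median, and 0.41 above without input DMSO 2; with centred libraries none of the 19 was called. ALKBH5, an m6A demethylase, was at 26.9 and 1.85 RPKM in the inputs and 64.8 and 60.8 in the IPs (log2 difference 2.84 ± 0.67). HNRNPA2B1, a nuclear RNA-binding protein, and ZC3H13, a subunit of the methyltransferase complex, had log2 differences of 2.59 and 2.48. Of 24 mTORC1 and nutrient-sensing genes 3 were called higher, MTOR, ULK1 and RPTOR, a smaller share than the 21.4% of all genes, with the median 0.08 above. RPTOR, the mTORC1 subunit raptor, was at 2.57 and 0.153 RPKM in the inputs and 4.10 and 7.25 in the IPs. Of 29 chromatin regulators with long mRNAs, 18 were called higher, against 21.4% of all genes, and none lower, with the median 0.78 above. Their median length was 12529 bases, and 34.4% of tested genes of 6780 to 29523 bases were called higher. The part of length in this count was not tested. BAZ1A had the largest difference, 4.17 ± 0.65, and was the 1 gene of the list called with centred libraries. Of 30 proteasome subunits 1 was called higher, PSMD1, a smaller share than the 21.4% of all genes, and the median lay 0.53 below the all-gene median. Of 17 glycolysis genes HK2, hexokinase 2, was called higher (1.96 ± 0.64) and GAPDH lower, against 21.4% and 1.75% of all genes. The list's median lay 0.24 below the all-gene median, 0.52 below in replicate 1 and 0.04 above in replicate 2. GAPDH went from 833 and 631 RPKM in the inputs to 133 and 335 in the IPs (−1.77 ± 0.51), both IP values below both inputs. The long noncoding RNA NORAD went from 17.3 and 0.628 RPKM to 71.6 and 47.8 (3.45 ± 0.67). MALAT1, a nuclear noncoding RNA, went from 8.33 and 0.419 RPKM to 45.0 and 2.00 and was called higher at 1.69 ± 0.62, although IP DMSO 2 lay below input DMSO 1.

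The difference went with gene length. The rule set no cut on length, but RPKM are divided by length, so length enters the rule through them. Lengths are the effective lengths implied by the steps of the RPKM values and could be had for 9787 genes. In replicate 2 the median log2 difference went from −0.14 in the shortest quintile (49 to 1728 bases) to 2.15 in the longest (6780 to 29523 bases), and in replicate 1 from 0.14 to 0.51. Of the shortest quintile 5.46% were called higher and 6.89% lower, and of the longest 34.4% and 0.102%. Input DMSO 2 had the steepest fall of level with length: its median was 4.56 RPKM in the shortest and 0.543 in the longest quintile, against 8.07 and 3.55 for input DMSO 1, 10.7 and 6.01 for IP DMSO 1, and 4.77 and 6.41 for IP DMSO 2. Replicate 1, which does not hold that library, had the trend in the same direction and smaller. Genes called higher had a median length of 5406 bases and a median input of 3.02 RPKM, and genes called lower 529.5 bases and 133 RPKM. The RefSeq class was protein-coding for 93.0% of genes called higher and 47.7% of those called lower, against 82.1% of all genes tested. Of the 172 genes called lower, 46 were pseudogenes, a class that held 727 of the 9813 genes tested. Of these 727, 46 were called lower and 20 higher, against 1.75% and 21.4% of all genes.

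**Figure D4:**
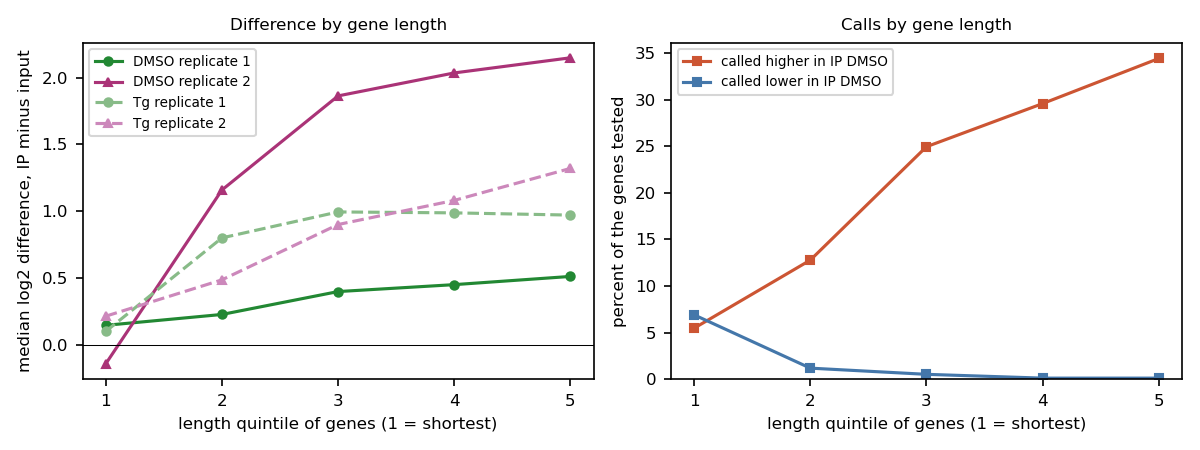
Genes in quintiles of effective length (1 is the shortest): on the left, the median log2 difference of IP against input in each replicate of DMSO and Tg, and on the right, the percent of each quintile called higher or lower in IP DMSO. The line of DMSO replicate 2 rises from −0.14 to 2.15 and that of replicate 1 from 0.14 to 0.51, and calls of higher genes rise from 5.46% to 34.4%.

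The authors' list of 3000 m6A sites, which gives no replicates or coverage, was matched to RefSeq gene spans. It came from cells labelled WT eIF3d and given DMSO, whereas the IP and input came from cells labelled HA-eIF3d-TEV. A site lay in 10.0% of the genes called higher, 41.5% of those called lower and 10.9% of all genes tested with a span. The genes called lower were also the most abundant, at a median input of 133 RPKM against 3.81 over all genes, and the part of abundance in this share was not tested.

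The same comparison under thapsigargin used other libraries of the same tagged cells. IP Tg against input Tg gave 1432 genes called higher (14.6%) and 159 lower (1.62%). Of the 2100 genes called higher in DMSO 1133 were called in Tg (54.0%, and 79.1% of those in Tg), and of the 172 called lower 109 were (63.4%, and 68.6% of those in Tg). DBN1 had a log2 difference of 6.31 in Tg, SPTAN1 of 6.11 and EIF3A of 5.01. Relative to the all-gene median, histone genes lay 4.48 below in Tg, small-subunit and large-subunit ribosomal protein genes 2.05 and 1.89 below, long cytoskeletal mRNAs 1.34 above and ER chaperones 0.46 above. Across genes, the DMSO and Tg differences correlated with r = 0.747 in replicate 1 and 0.665 in replicate 2, where they come from 1 deposited table, and the 2 replicates of Tg with r = 0.551. The test of the difference between Tg and DMSO called 0 genes higher and 6 lower (0.0611%), with 86 at an unadjusted p under 0.05. EIF3D, JUN, ATF4, HSPA5 and DBN1 were not among the 6, with differences between treatments of −0.72, 0.62, −0.41, −0.61 and 0.30. A p that misses the threshold does not show that recovery was the same in both treatments.

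**Figure D5:**
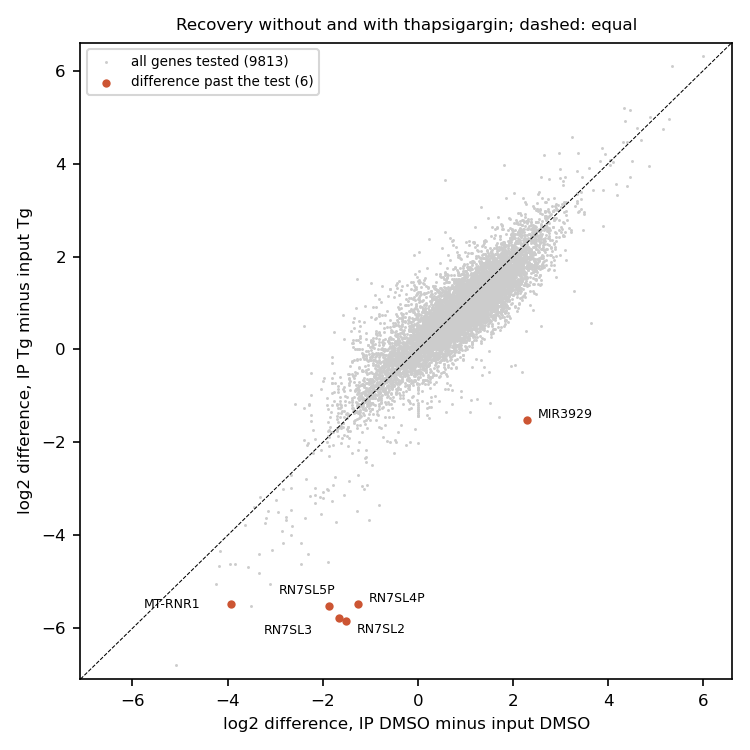
Log2 difference of RPKM + 1, IP minus input, without (horizontal) and with thapsigargin (vertical) for 9813 genes, with the 6 genes whose difference between treatments passed the test in orange and equality as a dashed line. MT-RNR1 and 4 genes of the 7SL family lie below the line at the bottom, near −5.5 to −5.8 in Tg, and MIR3929 lies apart from them.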

How the data were processed

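Subunit-Seq libraries of 4 groups (input and IP, DMSO and Tg, 2 each) and 2 RNA-Seq WT DMSO libraries were used; 6 other RNA-Seq columns were not. Per the labels' protocols, eIF3d was precipitated with anti-HA beads, its cap-binding domain freed with TEV protease and a directional library kit used. The deposited values are RPKM made by the authors, in a separate table for each replicate number of Subunit-Seq. The submitters' processing notes name cutadapt, STAR, BWA, DESeq2 and GRCh38; the counting tool, its use of strand and the annotation are not given in the sources used here. Symbols were found for 58207 of 58721 genes (99.1%).

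Reads and effective lengths were recovered from the whole-number steps of the RPKM values (tolerance 0.02 reads) for 22744 of the 22746 genes detected in 3 or more libraries. A count of 0 allows up to 3 reads; such limits cover counting error only. Values were fitted as log2(RPKM + 1), so fold changes of low genes are understated, with limma 3.58.1 in R 4.3.3: all 8 libraries in 1 fit, 4 groups plus the replicate number as a block because tables were made per replicate, an intensity trend, two-sided tests and Benjamini-Hochberg adjustment over 9813 genes. There were 3 residual degrees of freedom and an infinite prior, so p-values rest on the spread pooled over genes. SE is that of the fit. The script was tested on simulated data. Lists (34) were described by counts and medians, without tests. Summaries used Python 3.11.15 with pandas 2.3.3, numpy 2.4.6 and matplotlib 3.10.9.

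Named genes followed a rule: EIF3D; the 12 largest and 12 smallest differences among called genes averaging 5 RPKM or more in the 4 DMSO libraries, the same direction in both replicates and no overlap; up to 4 called members per list, or the 2 most abundant; and JUN, ATF4, DDIT3, EIF2AK4, ALKBH5, HSPA5, EIF4E, EIF4G2 and RPTOR. Of the 125 genes it gave, 89 were called higher, 29 lower and 7 not. Some genes the rule gave are not reported here. A few members of lists that the rule did not give are named to complete a count. Members and lists were chosen with earlier results of these data known. The start windows, and an alternative of at least 10 reads in each DMSO library, were added after seeing the data.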

Additional observations from a re-analysis of the deposited data

Results flagged for a closer look

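The difference of IP against input differed between Tg and DMSO, by the interaction term of the limma fit, for 6 genes, all lower in Tg. RN7SL2 differed by −4.32 on the log2 scale, RN7SL4P by −4.22, RN7SL3 by −4.12 and RN7SL5P by −3.65; all 4 are 7SL genes or copies with near-identical sequence, so the split of reads between them is uncertain. RN7SL2 was at 12054 and 204 RPKM in input DMSO 1 and 2 and at 106974 and 6682 in input Tg, against 475 and 640 in IP DMSO and 415 and 529 in IP Tg. The IP levels were thus alike and the inputs were not. MT-RNR1 differed by −1.56, with inputs at 29129 and 51336 RPKM in DMSO and 136737 and 31243 in Tg, and IPs at 1673 and 3886 in DMSO and 1602 and 1341 in Tg. MIR3929 differed by −3.81 and was above 0 in a single library of each treatment, IP DMSO 2 (23.3 RPKM) and input Tg 1 (7.13 RPKM). Input Tg 1 carried the highest 7SL, MT-RNR1 and MIR3929 input levels of these 4 input libraries, and without it none of the 6 was called; none was called either without input DMSO 1 or without input DMSO 2.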

How the results depend on the processing

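Counts of genes called in IP DMSO against input DMSO (2100 higher, 172 lower) moved with nearly every choice, and the cause was not tested. Without the replicate block they were 21 and 3, with the 4 DMSO libraries alone 59 and 33, with a pseudocount of 0.1 RPKM 1227 and 105, with centred libraries 86 and 406, with voom on recovered reads 663 and 42, and with no filter 0 and 0 (6071 at an unadjusted p under 0.05). With each gene's own spread they were 0 and 0, with 1746 at an unadjusted p under 0.05. A minimum mean of 5 RPKM left 562 higher of 4218 genes tested. Reads outside mitochondrial rRNA left 1343 of 9813, and a mean of 1 RPKM over all 8 libraries 3416 of 12284. With no filter 24957 genes were tested, against 9813 in the main fit, so these counts are not of the same genes. Leaving out 1 library gave 0 to 4937 higher and 0 to 150 lower, the lowest without input DMSO 2 and the highest number of higher genes without input DMSO 1. A pseudocount of 5 RPKM, or 10 reads in each DMSO library, kept both counts within 1.5 times.

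The difference between Tg and DMSO (0 higher, 6 lower) had 10 lower with a pseudocount of 5 RPKM, 2 higher with a mean of 1 RPKM over all 8 libraries, and 0 lower without the replicate block, with a pseudocount of 0.1 RPKM, no filter, centred libraries, reads outside mitochondrial rRNA, voom or each gene's own spread. Leaving out 1 library gave 0 to 2 higher and 0 to 17 lower. Same-numbered libraries deviated together in 5 of 6 pairs of groups (r from 0.210 to 0.510 across genes) and not between input DMSO and IP DMSO (0.002), so the numbers are not shown to pair the samples.

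Of the 118 named genes called, 45 were called with centred libraries, 80 with voom, 37 without IP DMSO 2 and 0 without input DMSO 2. Directions turned in few. RN7SL2 ranged from −3.91 (without input DMSO 2) to 0.89 (without input DMSO 1) when 1 library was left out, with 0.29 without IP DMSO 1, and was at 1.64 within replicate 2; RN7SL3 ranged from −3.64 to 0.33 in the same 2 settings and was at 0.49 within replicate 2; and MT-ATP8 at −0.11 within replicate 1. Of genes not called, DDIT3 and EIF4E were at −0.086 and −0.38 with centred libraries. GAS5 ranged from −0.709 without IP DMSO 1 to 0.28 without IP DMSO 2, SNHG5 from −1.04 to 0.47 in the same settings (0.12 without input DMSO 2) and SNORD3A from −2.50 without input DMSO 2 to 0.075 without input DMSO 1; within replicate 1 GAS5 was at 0.026 and SNHG5 at 0.59. Of the 31 lists with at least 5 genes tested, 19 kept the sign of their relative median under every alternative. Where a group was left with 1 library, that library was taken to vary like the other groups. Depth limits the low genes: 314 of the 9813 had no read in input DMSO 2 and as many in IP DMSO 2, and a count of 0 allows up to 3 reads.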

Other observations

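The requirement for 1 RPKM in the inputs left out genes seen almost only in the IP. There were 14 genes with a mean under 1 RPKM over the 4 inputs and at least 10 RPKM in both IP DMSO libraries. MYO6, an unconventional myosin, was at 2.00 and 0 RPKM in input DMSO 1 and 2 and at 77.2 and 105 in IP DMSO 1 and 2; the last value rests on 13725 reads, against 0 reads in input DMSO 2. SPTBN1, a beta spectrin, went from 1.32 and 0.0629 RPKM to 42.5 and 85.3. CGN, a tight junction protein, went from 1.04 and 0.135 RPKM to 16.2 and 25.6. The giant scaffolds PLEC, PATJ, AHNAK and SYNE2 were there too, with IP levels from 10.8 RPKM (SYNE2 in IP DMSO 1) to 22.2 RPKM (PATJ in IP DMSO 2). The transcription factor HOXD9 went from 1.84 and 0.732 RPKM to 18.8 and 24.4. These genes were picked by their IP level, so no test is given.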
